A study of Mus musculus with 12 samples.

Results

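The C-type lectin receptors described here are 10 genes of the 25230 in the deposited table, Clec7a, Clec4n, Clec4e, Clec4d, Clec4a1, Clec4a2, Clec4a3, Clec5a, Clec12a and Mrc1. They were chosen by gene symbol for what their proteins do, with earlier results of these data known. All 10 were in the table, and all 10 passed the filter for testing, which asked for a value of 1 TPM or more in 3 or more of the 12 libraries. TPM is a read abundance scaled to gene length and library size, so that levels can be compared between genes.

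Polyadenylated RNA was sequenced from mouse macrophages that had been grown from bone marrow in M-CSF, the growth factor of this lineage. The 4 groups of 3 libraries were wild-type (WT) cells with PBS, WT cells with Candida albicans, Piezo1 KO cells with PBS and Piezo1 KO cells with C. albicans. Piezo1 is a mechanically gated ion channel, C. albicans is a yeast that can grow as hyphae, and the series asks whether the channel takes part in sensing the fungus. The PBS libraries of the Piezo1 KO carry DMSO in their titles, though their treatment label says PBS. The vehicle, the dose and duration of exposure, the mouse strain and age, and how the knockout was made are not stated in the labels.

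C-type lectin receptors are membrane proteins of myeloid cells that bind sugars and lipids of microbes and of damaged cells. Dectin-1 (Clec7a) binds beta-glucan of the fungal wall and carries its own signalling motif. Dectin-2 (Clec4n), Mincle (Clec4e) and MCL, also called Dectin-3 (Clec4d), signal through the gamma chain adaptor Fcer1g. Both routes lead through the kinase Syk to the complex of Card9, Bcl10 and Malt1 and to NF-kB, and Mincle itself is known as an inducible receptor whose transcription depends on the factor Cebpb. Others of the family restrain signalling or take up cargo: Clec12a and the DCIR-like Clec4a group include receptors with inhibitory motifs, and the mannose receptor Mrc1 is an endocytic receptor of macrophages.

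Each library held 16400119 to 25741091 reads in genes, and 11283 genes were tested. Piezo1 itself stood at 130 to 147 TPM in the 6 WT libraries and at 62.4 to 67.5 in the 6 KO libraries, so it was lower in every KO library but still read. All 8 macrophage markers examined, among them Adgre1 and Csf1r, were at 1 TPM or more in every group, while the 12 neutrophil markers together held 9.49 to 16.4 TPM per library and Ly6g, Retnlg and S100a9 were listed at 0. Markers of T or NK cells, B cells, dendritic cells, mast cells and stroma each summed to at most 4.05 TPM. In several receptors WT C. albicans replicate 1 lay far from replicates 2 and 3, and values without it are given where a result rests on it. Nothing in the labels says that the libraries came from separate mice or cultures, so p-values measure the spread between these libraries only. In bulk RNA, fewer cells of a type and less RNA per cell cannot be told apart.

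Of these genes 9 lie on chromosome 6 and Mrc1 (gene 17533) lies on chromosome 2, at 14229414 to 14332023 on the plus strand in GRCm38.p6, the assembly that mm10 names. Clec4a1 (gene 269799, 122921848 to 122934619), Clec4a3 (gene 73149, 122952515 to 122969878), Clec4a2 (gene 26888, 123122690 to 123143999), Clec4n (gene 56620, 123229843 to 123247024) and Clec4d (gene 17474, 123262107 to 123275268) follow each other on the plus strand of chromosome 6. Clec4e (gene 56619, 123281789 to 123289871) comes next on the minus strand, with 6520 bases between it and Clec4d. Clec5a (gene 23845, 40574898 to 40585805, minus strand), Clec12a (gene 232413, 129349783 to 129365303, plus strand) and Clec7a (gene 56644, 129461591 to 129472785, minus strand) lie elsewhere on the same chromosome. No exon base of these genes is shared with another annotated gene. By sequence, 22.4% of the 31-base words of Clec4a2 transcripts also occur in transcripts of other genes, among them Clec4a3, so the reads of Clec4a2 are uncertain, while the share is 2.56% or less in the other 9 genes and 0 in Clec4e and Clec4d.

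The start regions of Clec4e, Clec4d and Clec7a are shown because Clec4e and Clec4d are the neighbours that responded most unequally and Clec7a is the beta-glucan receptor they are set against. Each is the RefSeq window from 250 bases before to 50 bases after the transcript start in GRCm38.p6, read 5′ to 3′ on the strand of the gene, in lower case with any match to the motifs below in capitals. The windows are chr6:123289822-123290121 for Clec4e (minus strand), chr6:123261857-123262156 for Clec4d (plus strand) and chr6:129472736-129473035 for Clec7a (minus strand).
Clec4e: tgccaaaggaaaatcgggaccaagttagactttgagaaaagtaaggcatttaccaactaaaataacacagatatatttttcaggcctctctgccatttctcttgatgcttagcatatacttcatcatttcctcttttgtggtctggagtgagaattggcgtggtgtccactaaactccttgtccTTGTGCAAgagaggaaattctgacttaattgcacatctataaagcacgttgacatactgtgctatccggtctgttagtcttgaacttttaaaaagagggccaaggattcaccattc
Clec4d: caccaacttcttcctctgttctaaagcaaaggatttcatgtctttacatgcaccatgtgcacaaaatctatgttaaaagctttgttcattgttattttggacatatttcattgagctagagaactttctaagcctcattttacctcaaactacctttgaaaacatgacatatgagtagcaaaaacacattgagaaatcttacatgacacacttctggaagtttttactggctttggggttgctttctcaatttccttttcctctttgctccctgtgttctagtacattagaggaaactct
Clec7a: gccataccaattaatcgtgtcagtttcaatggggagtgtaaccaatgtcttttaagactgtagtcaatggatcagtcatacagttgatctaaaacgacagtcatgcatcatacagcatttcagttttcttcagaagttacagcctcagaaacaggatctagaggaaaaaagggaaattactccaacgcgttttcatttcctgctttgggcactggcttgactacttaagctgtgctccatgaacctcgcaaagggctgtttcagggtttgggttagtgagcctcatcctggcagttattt
The motifs searched, on both strands, were TTGCNNAA for C/EBP factors, GGG and CC with 5 bases of any kind between them for NF-kB, TGANTCA for AP-1 and GAGGAAGT for PU.1. They occur in 10.8%, 50.8%, 7.81% and 3.20% of 32851 such windows. The Clec4e window holds 1 C/EBP match, TTGTGCAA on the strand shown, at 66 to 59 bases before the start (-66 to -59), and the Clec4d and Clec7a windows hold none of the 4 motifs. Among the other members, Clec12a has a C/EBP match (TTGCGCAA, -140 to -133) and an AP-1 match (TGAATCA, -213 to -207), Mrc1 an NF-kB match (-11 to -2), Clec4a1 a pair of overlapping NF-kB matches and Clec4a2 an AP-1 match (+32 to +38). The Clec12a window, 129349994 to 129350293, lies inside the gene span given above, so its matches precede the transcript start of the window but not the start of that span. Clec4a3 and Clec5a have none of the 4 in their windows, and no window was matched for Clec4n. A match describes letters only, and binding at these sites was not measured.

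Levels differed widely between the receptors. In WT cells with PBS, Clec4d was the most abundant at 959 ± 45.4 TPM (SD, n = 3), followed by Clec12a at 546 ± 22.1, Clec4a1 at 372 ± 20.3 and Clec4a3 at 224 ± 14.2. Mrc1 at 141 ± 7.95 and Clec7a at 129.95 ± 8.11 came next, and their libraries overlapped. Clec4a2, Clec4e, Clec4n and Clec5a closed the order at 69.9 ± 2.15, 56.3 ± 3.48, 19.8 ± 0.514 and 4.82 ± 0.216, with no overlap between neighbours. Clec4d was highest and Clec5a lowest in all 4 groups. With C. albicans Clec4e moved from 8th to 3rd in WT cells, and from 8th to 5th in KO cells, where its libraries overlapped those of Clec4a3. Summed, the 10 genes held 2523 ± 120 TPM in WT cells with PBS and 3543 ± 308 with C. albicans, against 2517 ± 47.8 and 2737 ± 19.6 in KO cells.

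**Figure D1:**
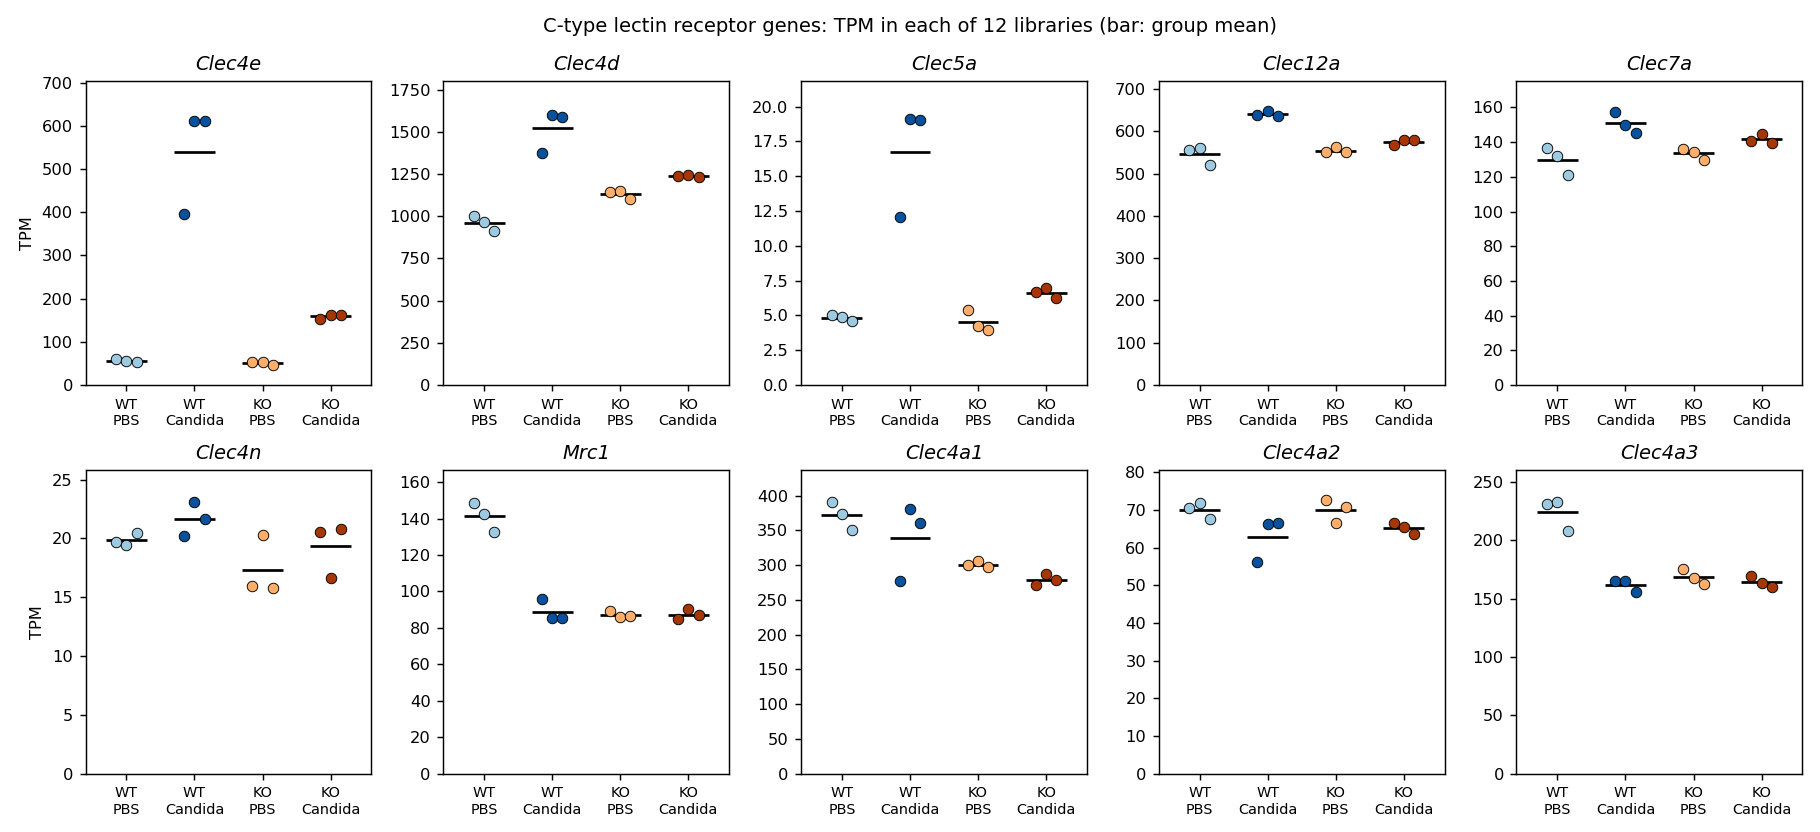
TPM of each of the 10 receptor genes (vertical axis, from 0, own scale in each panel) in the 12 libraries, by group of 3. Points are libraries and bars are group means. Clec4e in WT cells with C. albicans stands at 395 to 611 TPM and in KO cells with C. albicans at 154 to 162, while Mrc1 is above 130 only in WT cells with PBS.

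In WT macrophages C. albicans raised Clec4e, Clec5a, Clec4d, Clec12a and Clec7a and lowered Mrc1 and Clec4a3. Of the 10 receptors 7 passed an adjusted p of 0.05 (limma on log2(TPM + 1), Benjamini-Hochberg over 11283 genes), against 44.4% of all genes tested, and 5 of them were higher, against 16.1% of all genes. Clec4e and Clec5a at least doubled and passed, as did 2.05% of all genes. Groups did not overlap in 8 of 10 receptors, against 50.9% of all genes. Their median log2 fold change was 0.17, beside -0.07 over all genes tested. Over all genes the balance of calls depended on the scaling, with 36.2% of calls higher as deposited and 55.0% with median-ratio factors, while the receptors stayed at 5 higher and 2 lower with both.

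Clec4e, the Mincle gene, moved most. It was at 59.8, 56.1 and 52.9 TPM in the WT libraries with PBS and at 395, 610.0 and 611 with C. albicans, a 9.57-fold rise of the mean. The groups lay far apart, and replicate 1 was the lowest of the treated libraries. The fit put the change at 3.21 log2 units (SE 0.13, adjusted p = 9.76e-10), the 12th largest rise of all genes tested, and 3.42 without replicate 1.

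Clec4d, which encodes the partner that forms a receptor complex with Mincle, started from a much higher level. Its WT libraries stood at 1000.2, 966 and 910.4 TPM with PBS and at 1373, 1603 and 1588 with C. albicans. No library overlapped, and replicate 1 was again the lowest of the treated. In log2 units the rise was 0.66 (SE 0.05, adjusted p = 6.26e-07), and 0.73 without that replicate. In absolute level the rises of the pair were of similar size, 483 TPM for Clec4e and 562 for Clec4d.

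Clec5a, the gene of MDL-1, a receptor that signals through the adaptor Tyrobp (DAP12), was low throughout, with 112 to 722 reads per library. Its level went from 5.01, 4.87 and 4.58 TPM with PBS to 12.04, 19.1 and 19.0 with C. albicans in WT cells. In log2 units this rise was 1.58 (SE 0.15, adjusted p = 3.27e-06) and 1.78 without replicate 1, which again was the lowest. Clec12a, an inhibitory receptor, rose by 0.23 in log2 units (SE 0.03, adjusted p = 5.61e-05), being at 520.2 to 560.4 TPM in the PBS libraries and at 637 to 647 with the fungus.

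Dectin-1 rose little and Dectin-2 did not pass. Clec7a stood at 137, 132 and 121 TPM with PBS and at 157, 149.7 and 145 with C. albicans in WT cells. Its groups did not overlap, and the log2 difference was 0.21 (SE 0.05, adjusted p = 0.00246). Clec4n stood at 19.7, 19.4 and 20.4 TPM against 20.2, 23.1 and 21.7, overlapping groups with a log2 fold change of 0.12 (95% interval -0.10 to 0.33, adjusted p = 0.353). It rested on 146 to 285 reads per library, the fewest of the members beside Clec5a, which limits what can be seen in it.

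The mannose receptor gene went the other way. Mrc1 was at 148, 143 and 133 TPM in WT cells with PBS and at 95.8, 85.6 and 85.3 with C. albicans, groups that did not overlap. In log2 units it fell by 0.66 (SE 0.05, adjusted p = 7.09e-07). Of the 3 Clec4a genes, Clec4a3 fell by 0.47 (SE 0.05, adjusted p = 8.22e-06) and was at 208 to 233 TPM with PBS and 156 to 165 with the fungus. Clec4a1 and Clec4a2 did not pass, at -0.14 (adjusted p = 0.203) and -0.15 (adjusted p = 0.0548). Clec4a1 replicate 1 was at 277 TPM, while replicates 2 and 3, at 381 and 360.5, both lay inside the PBS range of 351 to 391. Without replicate 1 its value was -0.0043 (adjusted p = 0.942) and that of Clec4a2 -0.075 (adjusted p = 0.183). Without replicate 2 both passed, Clec4a1 at -0.23 (adjusted p = 0.0458) and Clec4a2 at -0.19 (adjusted p = 0.039), and without replicate 3 Clec4a2 passed (-0.19, adjusted p = 0.0356).

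The authors' deposited table, whose fold changes are for this same comparison, gave 3.34 for Clec4e, 1.88 for Clec5a, 0.75 for Clec4d, 0.31 for Clec12a and 0.30 for Clec7a on the log2 scale. In the authors' deposited table Mrc1 stood at -0.59 and Clec4a3 at -0.39, both with adjusted p-values under 0.05, as had the 5 genes that rose. Clec4n, Clec4a1 and Clec4a2 did not pass there (DESeq2 adjusted p = 0.260, 0.786 and 0.472). Over all genes, 4443 of the 13587 with an adjusted p-value passed. Those values come from the same libraries, so the likeness of the 2 sets of fold changes is not independent evidence.

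In Piezo1 KO macrophages Clec4e alone of the 10 receptors passed the test for a response to C. albicans, against 7.08% of all genes tested (limma), 3.94% being higher and 3.14% lower. It also at least doubled, as 0.682% of all genes did while passing. Its libraries stood at 52.4, 52.7 and 45.6 TPM with PBS and at 154, 162 and 162 with the fungus, a 3.17-fold rise of the mean. The 3 treated libraries lay close together and far above the untreated. In log2 units this was 1.65 (SE 0.13, adjusted p = 2.89e-06), the 34th largest rise of all genes. Groups did not overlap in 6 of 10 receptors, against 33% of all genes, and the median log2 fold change of the receptors was 0.07, beside -0.04 over all genes.

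Clec5a and Clec4d came closest to the threshold after it. Clec5a stood at 5.37, 4.21 and 3.94 TPM in KO cells with PBS and at 6.65, 6.97 and 6.27 with C. albicans, and its log2 difference was 0.48 (SE 0.15, adjusted p = 0.0691). Clec4d stood at 1142, 1150.4 and 1101 TPM against 1240.5, 1243 and 1235, groups that did not overlap, and its log2 difference was 0.13 (SE 0.05, adjusted p = 0.14). These misses depended on the spread taken from the other groups. Without WT C. albicans replicate 1, the adjusted p of limma was 0.00485 for Clec5a and 0.0128 for Clec4d at the same fold changes, and 3 receptors passed. Calls over all genes went from 799 to 1487 in that fit. In a limma fit of the 6 KO libraries alone the adjusted p was 0.0267 for Clec5a and 0.00535 for Clec4d. There Clec4a1 passed as lower (-0.11, adjusted p = 0.036), 4 receptors passed and calls over all genes went to 1350. Mrc1 was at 89.5, 85.8 and 86.6 TPM with PBS and at 84.6, 90.1 and 87.1 with C. albicans, overlapping groups whose log2 difference had a 95% interval of -0.11 to 0.11.

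**Figure D2:**
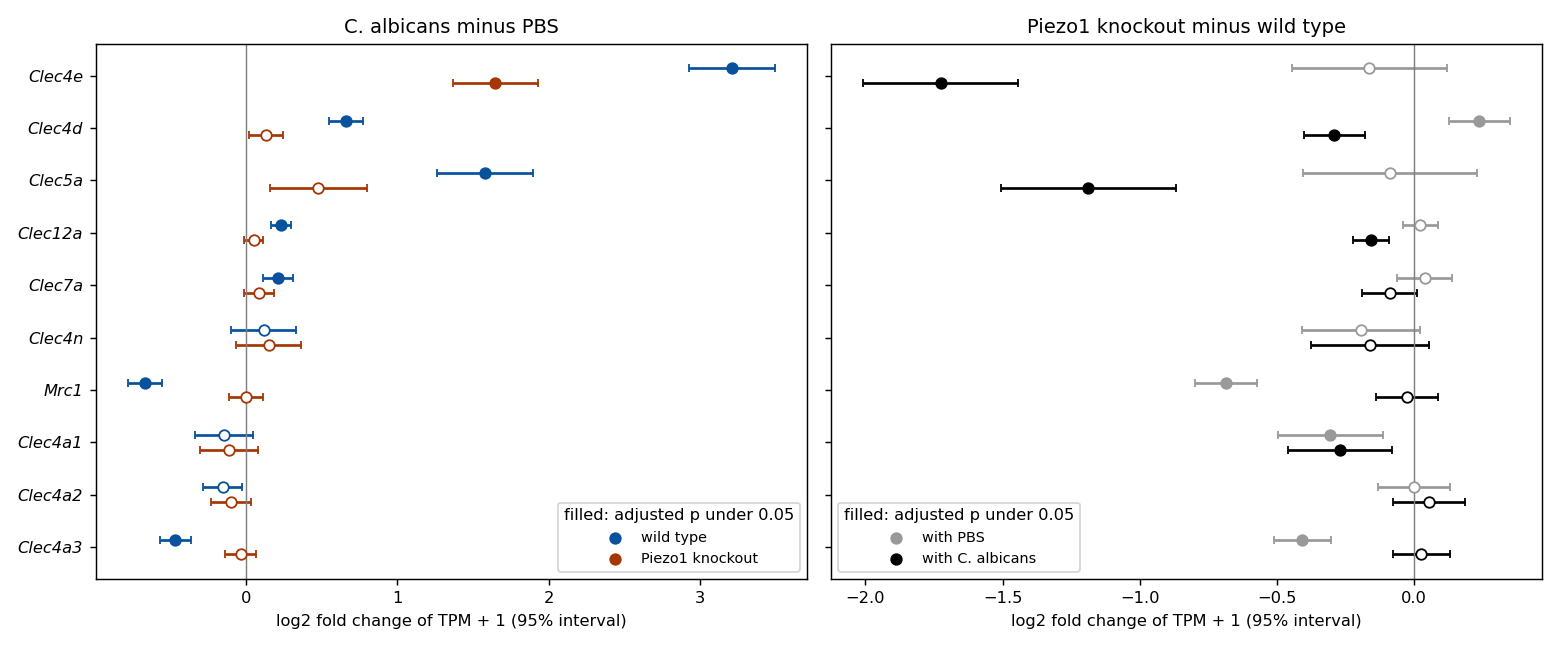
Log2 fold change of TPM + 1 with its 95% interval for the 10 receptor genes, on the left for C. albicans against PBS in each genotype, on the right for Piezo1 KO against WT with each treatment. Filled points passed an adjusted p of 0.05. Clec4e stands at 3.21 in WT and 1.65 in KO cells, and Mrc1 at -0.66 in WT cells.

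The response differed between the genotypes in 6 of 10 receptors by the interaction term of limma, the response in KO cells minus that in WT cells, against 13.9% of all genes tested, 6.33% with a negative and 7.52% with a positive difference. It was negative for Clec4e, Clec5a, Clec4d and Clec12a and positive for Mrc1 and Clec4a3. In log2 units Clec4e differed by -1.56 (SE 0.18, adjusted p = 0.000169), Clec5a by -1.10 (SE 0.21, adjusted p = 0.00411) and Clec4d by -0.53 (SE 0.07, adjusted p = 0.000494). Without WT C. albicans replicate 1 these were -1.77, -1.31 and -0.60. Clec12a differed by -0.18 (adjusted p = 0.0146, but 0.0598 without the variance trend). In TPM, the mean with C. albicans minus that with PBS was in KO cells 22.6% of its size in WT cells for Clec4e, the only one of these that passed there, and 19.4% for Clec4d, 17.9% for Clec5a and 21.3% for Clec12a.

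For Mrc1 the difference was 0.66 (SE 0.07, adjusted p = 0.000118) and for Clec4a3 it was 0.43 (SE 0.07, adjusted p = 0.00123), since both had fallen in WT cells and were near the same level in both KO groups. Clec7a did not pass at -0.13 (95% interval -0.27 to 0.01, adjusted p = 0.225). Clec4n at 0.03 (-0.27 to 0.34), Clec4a1 at 0.04 (-0.23 to 0.31) and Clec4a2 at 0.05 (-0.13 to 0.24) did not pass either, and these intervals leave room for differences in both directions. The DMSO in the titles of the KO PBS libraries touches this comparison, the KO response and the KO effect with PBS, and its part was not tested.

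**Figure D3:**
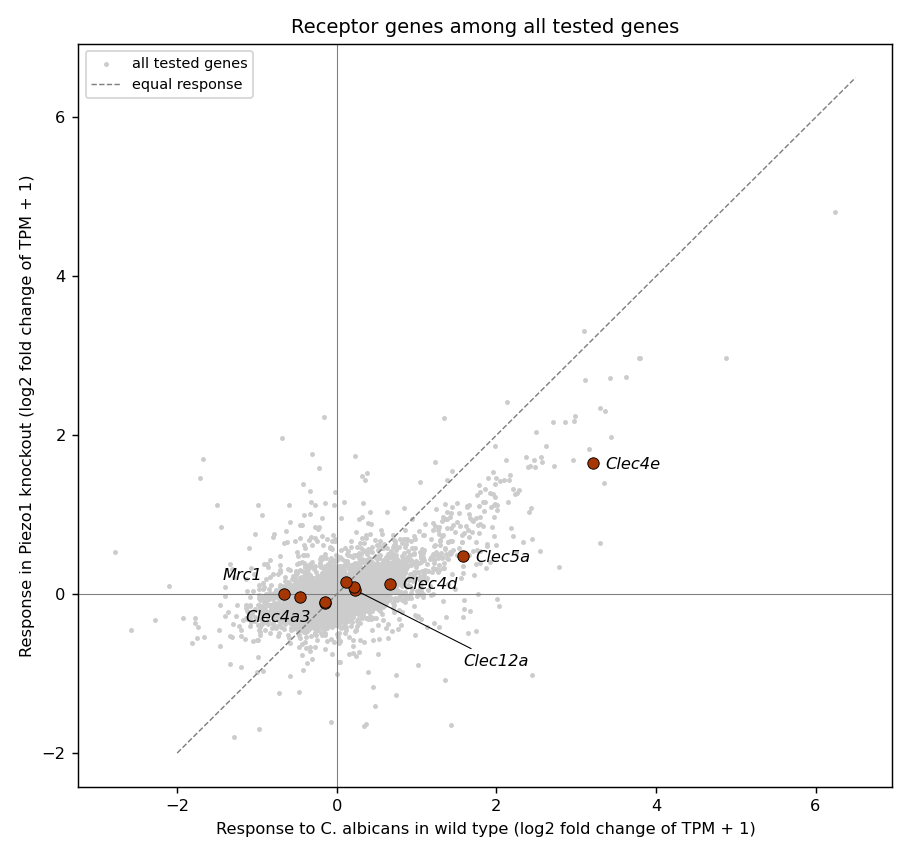
Log2 fold change of TPM + 1 with C. albicans in WT cells (horizontal) and in Piezo1 KO cells (vertical) for all 11283 genes tested (grey) and the 10 receptors (red). On the dashed line both responses are equal. Clec4e, at 3.21 and 1.65, Clec5a, at 1.58 and 0.48, and Clec4d, at 0.66 and 0.13, lie below it.

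With PBS, KO cells had less Mrc1, Clec4a3 and Clec4a1 and more Clec4d than WT cells. Of the 10 receptors 4 passed, 1 higher and 3 lower, against 32.3% of all genes tested (limma), of which 6.14% were higher and 26.1% lower. Groups did not overlap in 5 of 10, against 46.1% of all genes, and the median log2 difference was -0.13, beside -0.08 over all genes. Mrc1 stood at 61.8% of the WT mean, with a log2 difference of -0.69 (SE 0.05, adjusted p = 2.74e-06). Clec4a3 differed by -0.41 (SE 0.05, adjusted p = 6.49e-05), and stood at 162 to 175 TPM in the KO libraries. Clec4d was higher by 0.24 (SE 0.05, adjusted p = 0.00365). Clec4e, at 52.9 to 59.8 TPM in WT and 45.6 to 52.7 in KO cells, differed by -0.16 and did not pass (95% interval -0.45 to 0.12, adjusted p = 0.372), although its groups did not overlap. Without WT C. albicans replicate 1, whose spread enters the shared error, Clec4e passed at the same value (adjusted p = 0.0376).

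The count of receptors higher or lower with PBS depended on the scaling of the libraries. With median-ratio factors 3 were higher (Clec4d, Clec7a at 0.14 and Clec12a at 0.12) and 2 lower, and with upper-quartile factors 2 were higher and 2 lower, while over all genes the share of calls that were higher went from 19.0% to 49.5% and 41.1%. Clec4a1, at -0.31 as deposited (adjusted p = 0.0187), did not pass with either set of factors (adjusted p = 0.127 and 0.094) or without WT PBS replicate 1, WT PBS replicate 2 or KO PBS replicate 3 (0.0529 to 0.0706). Mrc1, Clec4a3 and Clec4d passed in the same direction with both. The KO effect with PBS and the response in WT cells share the 3 WT PBS libraries, so the like values of Mrc1 in them (-0.69 and -0.66) and of Clec4a3 (-0.41 and -0.47) are not independent of each other.

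With C. albicans, KO cells had less Clec4e, Clec5a, Clec4d, Clec4a1 and Clec12a than WT cells, and no receptor was higher. The 5 that passed compare with 39.9% of all genes tested (limma), 27.5% being lower, and groups did not overlap in 5 of 10, against 49.3% of all genes. The receptors' median log2 difference was -0.16, beside -0.05 over all genes. Clec4e stood at 29.5% of the WT mean, with a log2 difference of -1.72 (SE 0.13, adjusted p = 9.58e-07), the 14th largest drop of all genes. Clec5a stood at 39.7% (-1.19, SE 0.15, adjusted p = 4.64e-05) and Clec4d at 81.5% (-0.29, SE 0.05, adjusted p = 0.000672). Without WT replicate 1 the 3 differences were -1.93, -1.39 and -0.36. Clec12a differed by -0.16 (adjusted p = 0.0012) and Clec4a1 by -0.27 (adjusted p = 0.0272). The latter's groups overlapped, since WT replicate 1 at 277 TPM lay within the KO range of 271 to 287, and its value without that library was -0.41. The call of Clec4a1 was lost in 9 of 22 alternatives, with adjusted p-values of 0.0539 to 0.136, among them both sets of scaling factors and the fits without WT replicate 2 (-0.18, adjusted p = 0.12) or WT replicate 3 (-0.22). With upper-quartile factors Clec12a (-0.07, adjusted p = 0.0858) did not pass either, leaving 3 receptors lower. Over all genes the lower calls went from 3101 to 2245 with these factors.

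Mrc1 was at 85.3 to 95.8 TPM in WT and 84.6 to 90.1 in KO libraries with C. albicans, and the 95% interval of its log2 difference was -0.14 to 0.09. Clec4a3, at -0.08 to 0.13, Clec4a2, at -0.08 to 0.18, Clec7a, at -0.19 to 0.01, and Clec4n, at -0.38 to 0.05, did not pass either. After removal of a trend with gene length Mrc1 stood at 0.13 and passed as higher (adjusted p = 0.0236).

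The Mincle pair was also set against 3 other receptors, of which Clec7a had itself risen in WT cells. Within each library the summed TPM of Clec4e and Clec4d was divided by that of Clec7a, Clec4n or Mrc1. The ratio to Clec7a was 7.73 to 7.96 in WT cells with PBS and 11.2 to 15.2 with C. albicans, against 8.77 to 8.97 and 9.70 to 10.0 in KO cells. Groups did not overlap in either genotype, and the KO libraries with C. albicans stayed below all WT libraries with C. albicans. Against Clec4n the ratio was 47.2 to 53.8 and 87.5 to 101 in WT cells and 59.2 to 74.7 and 67.1 to 84.5 in KO cells, where the treatments overlapped.

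Relative to Mrc1 the pair went from 7.14 to 7.26 in WT cells with PBS to 18.5 to 25.9 with C. albicans. In KO cells it stood at 13.2 to 14.02 with PBS, already above the WT PBS libraries, and at 15.6 to 16.5 with C. albicans. Within the pair, Clec4e per Clec4d was 0.0581 to 0.0598 in WT cells with PBS and 0.288 to 0.385 with the fungus, and 0.0414 to 0.0459 and 0.124 to 0.131 in KO cells. The pair made up 40.2% of the TPM of the 10 receptors in WT cells with PBS, 58.0% with C. albicans, 46.9% in KO cells with PBS and 51.1% with C. albicans (means of 3 libraries). These ratios are descriptions, and no test was made of them. WT C. albicans replicate 1 gave the lowest of the 3 values in its group for each of them.

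**Figure D4:**
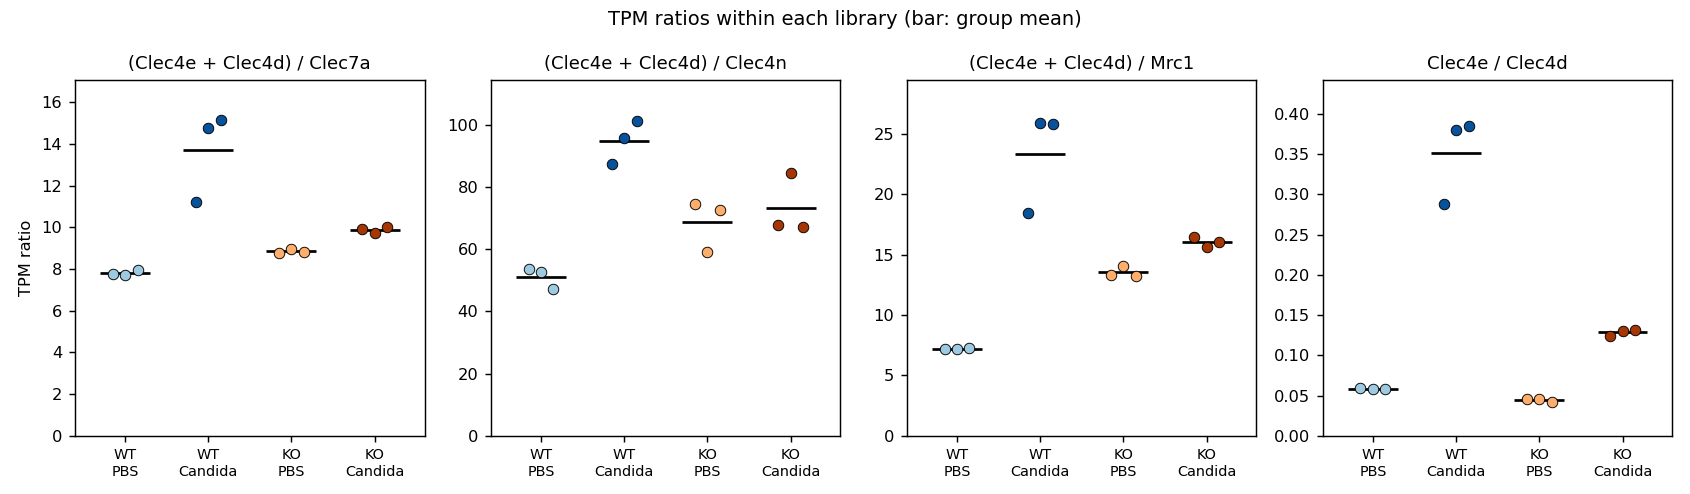
TPM ratios within each library (vertical axis, from 0, own scale in each panel) by group of 3, with bars at group means. The first 3 panels divide the summed TPM of Clec4e and Clec4d by that of Clec7a, Clec4n or Mrc1, and the last divides Clec4e by Clec4d. The ratio to Mrc1 is 7.14 to 7.26 in WT cells with PBS, 18.5 to 25.9 in WT cells with C. albicans and 13.2 to 16.5 in KO cells.

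Across the 12 libraries, which share treatments and genotypes, the receptors fell into patterns that are given as descriptions with no test. Pearson's r of log2(TPM + 1) was 0.97 between Clec4e and Clec5a, 0.94 between Clec4e and Clec12a and 0.91 between Clec4e and Clec4d. Mrc1 and Clec4a3, genes on different chromosomes, had 0.97. Clec4d and Clec4a3 had -0.76, and Clec4n had values between -0.40 and 0.58 with the other 9.

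Among 8898 genes with a mean of at least 5 TPM, the 5 most like Clec4e were Ehd1, an endocytic recycling gene (r = 0.996), Ppp1r15a, a stress-induced phosphatase regulator (0.996), Slfn2 (0.993), Icam1, a ligand of leukocyte integrins (0.993), and Errfi1, a feedback inhibitor of EGF receptor signalling (0.993). Ehd1 stood at 43.4 to 45.6 TPM in WT cells with PBS and 172 to 217 with C. albicans, and at 43.0 to 44.0 and 97.6 to 100.5 in KO cells. The 5 most like Clec4d were Carmil1 (0.985), Glipr1 (0.983), Emp1 (0.978), Psma3, a proteasome subunit (0.978), and Alcam, an adhesion gene (0.977). Carmil1 stood at 4.71 to 5.82 and 11.4 to 15.6 TPM in WT cells and at 6.77 to 7.25 and 8.02 to 9.13 in KO cells, so that, like Clec4d, it was above the WT PBS libraries in the KO with PBS.

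**Figure D5:**
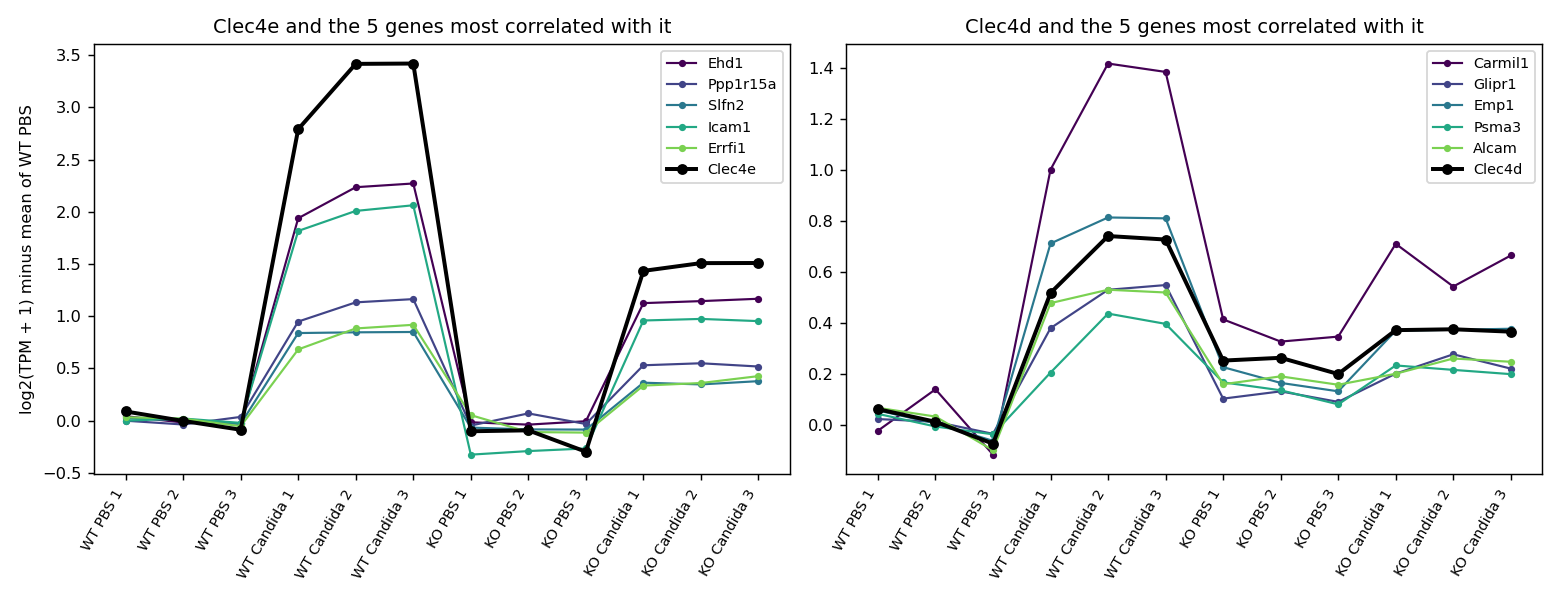
Log2(TPM + 1) minus the mean of the WT PBS libraries (vertical axis) in each of the 12 libraries (horizontal axis), on the left for Clec4e and on the right for Clec4d (black), each with its 5 most correlated genes (colours). Lines join the values of a gene and stand for no order. Clec4e has the largest range of its panel, and Carmil1 exceeds Clec4d in its panel.

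The adaptors, kinases and other signalling genes below the receptors were described from a list of 28 genes, all tested. This list also held transcription factors, of which Nfkb1, Rela and Relb are counted again in the list of factors further on. In WT cells 17 rose and 7 fell with C. albicans, against 44.4% of all genes called, with a median log2 fold change of 0.18 beside -0.07 over all genes. In KO cells 6 rose and 1 fell, against 3.94% and 3.14% of all genes, and the interaction passed for 8, of which 6 were negative, against 13.9% and 6.33%. Without WT C. albicans replicate 1 these counts were 11 and 2 for the KO response and 10 negative and 2 positive for the interaction. In that fit calls over all genes went from 445 higher and 354 lower to 663 and 824 for the KO response. For the interaction they went from 714 negative and 849 positive to 1059 and 1472. Malt1, the protease of the Card9 complex, rose by 1.94 in WT and 0.84 in KO cells, an interaction of -1.10 (SE 0.08, adjusted p = 3.4e-06). Bcl10, its partner, rose by 0.53 and 0.37, and Relb, an NF-kB subunit, by 1.09 and 0.56. The kinase gene Syk rose by 0.30 in WT cells (adjusted p = 1.86e-05) and did not pass in KO cells, with a 95% interval of -0.07 to 0.07 and an interaction of -0.30 (SE 0.05, adjusted p = 0.00146). Card9 fell by 0.39 in WT cells (adjusted p = 0.000593) and stood at -0.18 in KO cells (adjusted p = 0.133), and the interaction of 0.21 did not pass (adjusted p = 0.178).

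Fcer1g, the adaptor that Mincle, MCL and Dectin-2 share, was at 2432 ± 11.3 TPM in WT cells with PBS and passed in neither genotype, at 0.02 (adjusted p = 0.477) and 0.05 (adjusted p = 0.189), though with median-ratio factors it passed in WT cells at 0.10 (adjusted p = 0.0139). Tyrobp, the adaptor of MDL-1, rose by 0.16 in WT (adjusted p = 0.0066) and 0.18 in KO cells (adjusted p = 0.0182), the latter lost in 6 of 22 alternatives, with adjusted p-values up to 0.0778. Between the genotypes, 16 of the 28 genes were lower and 2 higher in KO cells with PBS, and 21 lower and 3 higher with C. albicans. Over all genes 26.1% and 27.5% were lower and 6.14% and 12.4% higher. The 2 higher with PBS were Fcer1g at 0.11 and Tyrobp at 0.20, and both were also higher with C. albicans, at 0.14 and 0.22. With PBS the lower count depended on the scaling, at 11 with median-ratio or upper-quartile factors and 5 with the gene length trend removed, where 1 gene was higher. Over all genes the lower calls with PBS went from 2948 to 1608, 1853 and 999 in that order. With C. albicans 19 to 21 of the 28 were lower under all scalings, while over all genes the lower calls went from 3101 to 2463, 2245 and 2059. Cbl, a ubiquitin ligase that ends Syk signalling, was among the lower genes, at -1.38 with PBS and -1.45 with C. albicans, and so was Vav1, a guanine nucleotide exchange factor, at -0.40 and -0.39.

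Of the factors that act on such genes, a list of 20 C/EBP, NF-kB, AP-1 and macrophage factors had 18 tested. In WT cells 12 rose and 5 fell, against 16.1% and 28.3% of all genes, and in KO cells 7 rose and 2 fell, against 3.94% and 3.14%. The interaction passed for 11, of which 7 were negative, against 13.9% and 6.33% of all genes. Under the other scalings 12 to 13 rose in WT cells and 7 to 9 in KO cells. Over all genes, those that rose went from 1814 to 1911 to 2559 in WT cells and from 445 to 501 to 605 in KO cells. Cebpb rose by 0.75 in WT (adjusted p = 9.22e-08) and by 0.49 in KO cells (adjusted p = 2.05e-05). Its interaction of -0.26 (SE 0.07, adjusted p = 0.0246) was lost in 7 of 21 alternatives, with adjusted p-values up to 0.063. Fos rose by 1.798 and 0.88, Nfkb2 by 1.23 and 0.50 and Junb by 1.33 and 0.75 in WT and KO cells.

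Of 40 other genes with a C-type lectin domain, 14 reached the level asked for testing. In WT cells 6 rose and 2 fell, against 44.4% of all genes called, and in KO cells 2 rose and 1 fell, against 7.08%. Without WT C. albicans replicate 1, 7 rose and 1 fell in KO cells. In that fit calls over all genes went from 445 higher and 354 lower to 663 and 824. The interaction was negative for 2 and positive for 1 of the 14 and did not pass for 11, against 6.33% negative and 7.52% positive over all genes. Cd69, an early activation antigen, rose by 2.96 and 1.68 with an interaction of -1.27 (SE 0.12, adjusted p = 3.21e-05). Olr1, a receptor for oxidized lipoprotein, rose by 1.97 in WT cells, with an interaction of -1.24 (adjusted p = 0.0363). In KO cells its response of 0.73 did not pass (limma adjusted p = 0.104). Its level was low, with means of 0.93 TPM in WT and 0.74 in KO cells with PBS, and 7.06 and 1.90 with C. albicans. Thbd, encoding thrombomodulin, fell by 1.46 and 0.66, and its interaction was 0.80 (adjusted p = 0.000154).

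Among 19 tested of 21 other receptors for fungi and opsonins, 7 rose and 7 fell in WT cells, with a median log2 fold change of -0.02, against 44.4% of all genes called and a median of -0.07. In KO cells 5 rose and 1 fell, against 3.94% and 3.14% of all genes. Tlr2, the receptor of microbial lipopeptides, rose by 1.89 in WT and 1.46 in KO cells, with an interaction of -0.43 (SE 0.06, adjusted p = 0.000796). Nod2, an intracellular sensor, rose by 1.75 and 0.96. Fcgr3, a receptor for immunoglobulin G, fell by 0.65 in WT cells with an interaction of 0.65 (adjusted p = 5.97e-07). Itgam, the alpha chain of complement receptor 3, had an interaction of 0.45 (adjusted p = 6.83e-05) with another pattern. It did not pass in WT cells (-0.017, limma adjusted p = 0.698) and rose by 0.43 in KO cells (limma adjusted p = 2.23e-06). With PBS, 12 of the 19 were lower and 2 higher in KO cells, against 26.1% and 6.14% of all genes, or 9 and 2 under each of the 3 other scalings. Under these, 999 to 1853 of all genes were lower and 811 to 1577 higher, where 2948 and 693 were so as deposited. Among the lower were Itgam at -0.80 and Fcgr2b, an inhibitory receptor for immunoglobulin G, at -0.91.

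Macrophage markers did not all move alike with the genotype. The summed TPM of the 8 markers was 25731 to 26277 in WT cells with PBS and 21935 to 23369.9 with C. albicans. In KO cells it was 15425 to 15664 with PBS and 15969 to 16078 with C. albicans. Most of the sum was Lyz2, whose mean was 19698 TPM in WT and 9099 in KO cells with PBS. With PBS, 4 of the 8 were lower in KO cells and 1, Cd68 at 0.31, was higher, against 26.1% and 6.14% of all genes. With C. albicans 5 were lower and 3 higher, against 27.5% and 12.4%. The part of these markers in the receptor results was not tested. The neutrophil markers summed to 9.49 to 9.87, 12.7 to 15.02, 12.5 to 16.4 and 9.71 to 11.96 TPM in the same order of groups, with Ly6g and S100a9 listed at 0.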

How the data were processed

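Polyadenylated RNA of 12 libraries of mouse bone marrow derived macrophages was analysed, 3 for each of 2 genotypes with each of 2 treatments, grouped by the genotype and treatment labels. Per the submitters' processing notes, the tools were STAR 2.7.5a, cutadapt 2.6, DESeq2 1.34.0 and CASAVA 1.8, and the build was mm10. For the read counter, its use of strand and the annotation release, the sources used here give neither version nor setting. Values deposited by the authors are TPM for 25230 genes per library. Beside them are the authors' DESeq2 results for 1 comparison, per the file headers: the mean signal, the log2 fold change and its error, the Wald score, and raw and adjusted p-values. From the values, the deposited log2 columns are C. albicans over PBS in WT cells, with a median absolute difference of 0.000946 over 9298 genes from the ratio of scaled reads.

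Whole reads were recovered from TPM and mean signal for depth only, with 100% of 124664 nonzero values under 1000 reads within 0.01 of a whole number. A further 0.00132% of reads lay in 28 rows with no symbol, which stayed in the TPM totals. Differences were fitted to log2(TPM + 1), a scale that shrinks those of low genes, by limma 3.58.1 in R 4.3.3 with group means, a variance trend, all libraries and no replicate block (8 residual degrees of freedom), for every gene that reached 1 TPM in 3 or more libraries. Adjusted p-values are two-sided, by Benjamini-Hochberg over all 11283 genes tested within a comparison, threshold 0.05. The fit was tested on simulated data with independent normal values. Those data held no outlying library, scaling shift or gene length trend, so that test does not cover these. The members, gene lists and tests were chosen with earlier results of these data known. Named genes were the members, 6 partners (Fcer1g, Tyrobp, Syk, Card9, Malt1 and Cebpb), the 5 genes most correlated with Clec4e and with Clec4d, and up to 4 of each list with the smallest p in a comparison. Start regions came from RefSeq windows of GRCm38.p6, with entries for 9 of the 10 members, and shared words from annotated transcripts of the same assembly. Alternatives were 3 scalings, pseudocounts of 0.1 and 5, no filter, trend off, robust estimation, fewer libraries, the replicate block and each library left out.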

Additional observations from a re-analysis of the deposited data

Results flagged for a closer look

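By the interaction term of limma (response to C. albicans in Piezo1 KO cells minus that in WT cells, on the log2 scale), 6 of the 10 receptors and 3 of the 6 named partners differed between the genotypes. Over all genes tested 13.9% differed, 6.33% with a negative and 7.52% with a positive difference. Among the receptors the differences were -1.56 for Clec4e, -1.10 for Clec5a, -0.53 for Clec4d and -0.18 for Clec12a, which rose in WT cells, while of these only Clec4e passed in KO cells. They were 0.66 for Mrc1 and 0.43 for Clec4a3, which fell in WT cells and did not pass in KO cells. Among the partners they were -1.10 for Malt1, -0.30 for Syk and -0.26 for Cebpb. All 9 have the same sign in each alternative that was run. The adjusted p-values of Clec12a and Cebpb went above 0.05 in some of them, while those of the other 7 reached at most 0.0164.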

How the results depend on the processing

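Of 1090 values of single receptors under the alternatives, 1026 kept their direction and side of the threshold, as did 106 of 109 counts of receptors called. In the fit of only the libraries of the comparison 4 receptors passed for the KO response, while calls over all genes went from 799 to 1350. Leaving out each library gave 1 to 3 receptors, 3 without WT C. albicans replicate 1. With upper-quartile factors 3 receptors passed for the KO effect with C. albicans, while calls over all genes went from 4503 to 4713. Leaving out each library moved r of Slfn2 with Clec4e between 0.992 and 0.998. No strong pairing by replicate number was seen, with deviations of same-numbered libraries correlated between -0.09 and 0.09. Such values cannot show that the libraries were unpaired. With the replicate block 7, 1, 4, 5 and 6 receptors passed in the 5 comparisons, as without it.

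The sign changes were of values near 0 that did not pass as deposited. With median-ratio factors Clec4a3 (0.0084) and Mrc1 (0.041) changed sign for the KO response, Clec4a2 (0.095) for the KO effect with PBS, Mrc1 (0.036) for the KO effect with C. albicans, and Clec4n (-0.0037), Clec4a1 (-0.0014), Fcer1g (-0.0076) and Tyrobp (-0.017) for the interaction. With upper-quartile factors Mrc1 did so for the KO response (0.019) and the KO effect with C. albicans (0.056), and Clec4a2 (0.073) for the KO effect with PBS. With the gene length trend removed these were Fcer1g (-0.013) for the WT response, Mrc1 (0.039) for the KO response, Clec4a2 (0.063) and Clec5a (0.027) for the KO effect with PBS, Clec4a3 (-0.047) and Mrc1 (0.13, adjusted p = 0.0236, the only one that passed) for the KO effect with C. albicans, and Clec4n (-0.0050) and Clec4a1 (-0.013) for the interaction. The cause was not tested.

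Leaving out single libraries, Mrc1 lay between -0.024 and 0.021 and Syk between -0.035 and 0.020 for the KO response. For the KO effect with PBS, Clec4a2 lay between -0.028 and 0.035, Clec7a between -0.011 and 0.077 and Clec12a between -0.011 and 0.043. For that with C. albicans, Mrc1 lay between -0.053 and 0.030, Clec4a3 between -0.0031 and 0.044 and Clec4a2 between -0.025 and 0.094. For the interaction, Clec4n lay between -0.030 and 0.14, Clec4a1 between -0.10 and 0.13, Tyrobp between -0.034 and 0.048 and Clec4a2 between -0.024 and 0.095.

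Counts over all genes moved more. Those for the KO response went from 799 to 420 without KO PBS replicate 3 and to 1487 without WT C. albicans replicate 1, those for the interaction from 1563 to 1036 without KO PBS replicate 1 and to 2531 without WT C. albicans replicate 1, and those for the KO effect with PBS from 3641 to 1810 with the gene length trend removed. Low reads limit Clec4n and Clec5a most.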
